A study of Mus musculus with 2 samples.

Results

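The cells described here were cycling CD8 T cells: tumour-infiltrating lymphocytes that carried both chains of the CD8 coreceptor and transcripts of the cell division genes Mki67 and Top2a. They were selected on counts of unique molecular identifiers (UMIs, 1 for each captured transcript molecule). A barcode was a member if it had at least 300 detected genes, at most 10% mitochondrial UMIs, at least 1 UMI each of Cd3e, Cd8a and Cd8b1, none of Cd4, Foxp3 and Csf1r, and at least 3 UMIs of Mki67 and Top2a together. Of 23731 deposited barcodes, 22490 were kept, 4401 of those were CD8 T cells, and 1695 were cycling, which was 38.5% of the CD8 T cells and 7.54% of the kept cells. The remaining 2706 CD8 T cells served as the reference for descriptions (other CD8 T cells).

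The study compared tumours of mice made to lose the exonuclease Trex1 in adult life with tumours of mice that kept a working copy. Male mice of 8 to 12 weeks received 1000 B16-F10 melanoma cells, a mouse melanoma line, with Matrigel in the skin of both legs. Tamoxifen (1 mg, injected into the peritoneum) was given for 3 days from day 5, the tumours were taken on day 14, and live CD45+ cells were bead-enriched and sorted before droplet 3' single-cell RNA sequencing. The 4 Trex1 iKO samples carried Trex1 fl/fl with R26CreERT2-ki/wt and the 4 Trex1 control samples Trex1 wt/fl with R26CreERT2-ki/wt, so the controls also carried the Cre and a floxed allele and also received tamoxifen. R26CreERT2 is expressed in all cell types, so the deletion was not restricted to T cells. Samples were marked with hashtag antibodies and run as 1 pool for each genotype, so the effects of pool and of genotype cannot be told apart here. The labels do not say whether a hashtagged sample was 1 mouse, and p-values measure only the spread between these samples.

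Trex1 degrades DNA in the cytosol, and without it self DNA can activate the sensor cGAS, which signals through STING to the type I interferon genes. Interferons bind receptors on nearly every cell and switch on a shared programme of antiviral and antigen presentation genes. In tumours, CD8 T cells that recognise antigen divide, and the stem-like cells that sustain them express the transcription factor Tcf7, while their more differentiated progeny carry inhibitory receptors such as Pdcd1 and cytotoxic granules.

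The members were spread unevenly over the samples. The iKO samples 1 to 4 held 532, 885, 29 and 37 cycling CD8 T cells and the control samples 128, 45, 23 and 16. The iKO samples 1 and 2 thus held 1417 members, 83.6% of all, and they stood apart from iKO samples 3 and 4 also in several effector genes below. Of 54 named genes called between genotypes below, 24 lost the call without that pair. That fit held 2 iKO samples against 4 controls, so it could detect less, and none of the 54 reversed in any alternative. Summed UMIs of the members ranged from 402987 in control sample 4 to 22402411 in iKO sample 2, and the median cell had between 17286 and 30614 UMIs, against 7351 to 12789 in other CD8 T cells. The share of members with a doublet score above 0.25 was 0.708%, 12 cells. No barcode was shared by 2 matrices of a pool or by members of different pools.

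The label was checked against markers. Detection of Cd3e, Cd8a and Cd8b1 was fixed by the rule. The 12 other T cell identity genes (T cell receptor complex genes and Cd2, Lat and similar genes) were all detected and had a summed level of 4760 to 7127 CPM (UMIs of a gene scaled to the same total in each sample's summed members). Dendritic cell markers had the largest sum of the other cell types, 239 to 667 CPM in iKO and 434 to 1081 CPM in control. NK cell markers summed to at most 3.94 CPM and erythroid markers to at most 1.26 CPM. Levels of monocyte and macrophage markers were 182 to 327 CPM, with Csf1r at 0 by the rule and the other 9 of 10 genes detected, and those of neutrophil markers were 71.7 to 253 CPM. Trex1 itself was listed at 0 UMIs in the members and in the other CD8 T cells of all 8 samples, controls included. Why it was at 0 in the controls is not known, so its loss could not be checked here. The annotated span of Atrip contains that of Trex1 on the same strand (GENCODE, GRCm38). Atrip had 547 UMIs in the members and did not pass the test (log2 fold change -0.07 ± 0.24 (SE), edgeR adjusted p = 0.978).

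The cells just inside and just outside the threshold were close to each other. The 195 members with exactly 3 UMIs of Mki67 and Top2a had a median of 20 UMIs over the S phase genes and 14 over the G2/M genes. The 396 CD8 T cells with 2 such UMIs had medians of 14 and 10. Over all members the medians were 105 and 121. Within the members, the median of Mki67 and Top2a together ranged from 7 to 23 UMIs between samples and single cells reached 76 to 180. Between 30.4% and 53.1% of the members of a sample had a larger share of S phase than of G2/M transcripts.

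The first comparison asked whether more CD8 T cells cycled in the iKO tumours. Cycling cells made up 49.2%, 40.6%, 23.2% and 17.9% of the CD8 T cells in iKO samples 1 to 4, with Wilson 95% intervals of 46.2 to 52.2%, 38.6 to 42.7%, 16.7 to 31.3% and 13.3 to 23.7%. In control samples 1 to 4 they made up 34.4%, 25.7%, 14.2% and 16.0%, with intervals of 29.8 to 39.4%, 19.8 to 32.7%, 9.65 to 20.4% and 10.1 to 24.4%. These intervals cover counting error only. The 2 highest values were those of iKO samples 1 and 2, and iKO samples 3 and 4 lay within the range of the controls. The means were 32.7% ± 14.7 (SD, n = 4) in iKO and 22.6% ± 9.37 (SD, n = 4) in control, and the difference of 10.1 percentage points did not exceed the spread (2-sided exact permutation test, p = 0.286, adjusted over 4 tests 0.286; the smallest p that 4 against 4 samples allow is 0.0286). Without iKO samples 1 and 2 the difference was -2.04 percentage points, with control samples 1 and 2, the highest controls, kept. The iKO samples 3 and 4 lay above control samples 3 and 4. Each iKO sample also lay above the control of the same number, but the labels do not say that the numbers pair the samples.

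**Figure D1:**
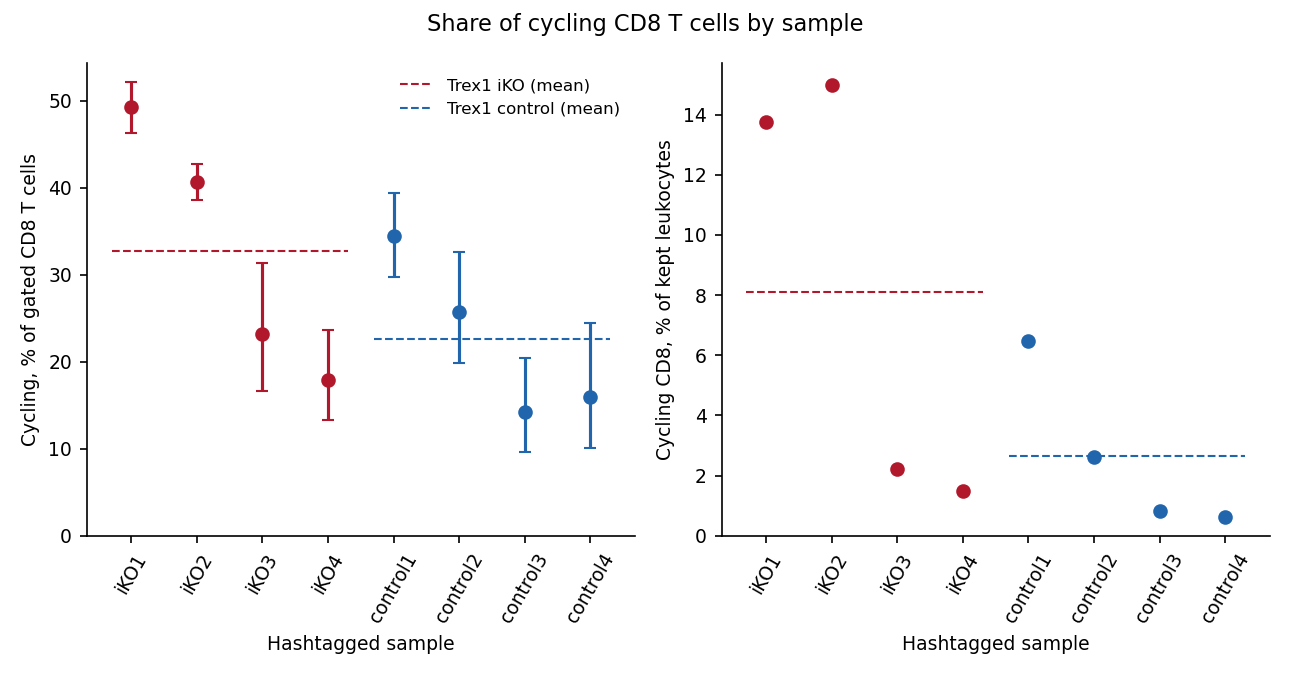
Share of cycling cells among CD8 T cells and among all kept cells (percent, vertical axes) for the 8 hashtagged samples (horizontal axes); points stand for single samples, dashed lines for the mean of each genotype and the error bars on the share of CD8 T cells for Wilson 95% intervals. The iKO samples 1 and 2 reached 49.2% and 40.6% of CD8 T cells and the other 6 samples lay between 14.2% and 34.4%.

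As a share of all kept leukocytes, cycling CD8 T cells were 13.8%, 15%, 2.22% and 1.51% in iKO samples 1 to 4 and 6.47%, 2.63%, 0.833% and 0.639% in the controls, in order. The groups overlapped, since control samples 1 and 2 lay above iKO samples 3 and 4. The means were 8.12% ± 7.25 (SD, n = 4) and 2.64% ± 2.70 (SD, n = 4), and the 2-sided exact permutation p was 0.229 (adjusted 0.286). Without iKO samples 1 and 2 the difference was -0.777 percentage points, with control samples 1 and 2, the highest controls, kept. The iKO samples 3 and 4 lay above control samples 3 and 4. Cells with at least 5000 UMIs were also thinned to 5000 UMIs, which removes the advantage of deeper cells, and gated again. Cells with fewer UMIs were left out, 1096 of 13531 kept cells in iKO and 2795 of 8959 in control. The cycling share of CD8 T cells was then 32.0%, 26.6%, 15.2% and 10.6% in iKO and 22%, 12.7%, 10.3% and 10.4% in control (exact permutation p = 0.200). The order of the 2 highest samples was the same after thinning.

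The phase of the members was compared by the ratio of UMIs in S phase genes, which copy DNA, to UMIs in G2/M genes, which build the spindle and divide the cell. The log2 ratio was -0.69, -0.55, -1.17 and -1.09 in iKO samples 1 to 4 and -0.42, -0.56, -1.15 and -0.35 in the controls, in order. Both groups held values near -0.5 and near -1.1. The means of -0.88 ± 0.30 (SD, n = 4) and -0.62 ± 0.36 (SD, n = 4) differed by less than the spread (2-sided exact permutation p = 0.257, adjusted 0.286).

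Cycling was next read across differentiation states, set by at least 1 or 0 UMIs of Tcf7, the factor of stem-like cells, and Pdcd1, the inhibitory receptor PD-1. Among Pdcd1+ CD8 T cells without Tcf7, 52.8%, 44.0%, 33.9% and 26.1% cycled in iKO samples 1 to 4 and 48.1%, 39.8%, 29.2% and 31.7% in the controls, in order. Among Pdcd1+ cells with Tcf7, 47.6%, 30.7%, 14.3% and 20.0% cycled in iKO and 22.6%, 9.09% and 16.7% in control samples 1 to 3. Those states held 21 to 101 cells in the iKO samples and 11 to 31 in these controls, and control sample 4 had 6 such cells and was left out under a minimum of 10. The Tcf7+ share was lower in 7 of 7 samples (mean paired difference -16.1 percentage points ± 9.59, SD). The exact sign-flip permutation p was 0.0156, the smallest that 7 pairs allow, and 0.0625 after adjustment over 4 tests. The other exact permutation tests had p-values of 0.229 to 0.286. Beside those, no result from 7 pairs could have reached an adjusted p below 0.05, so the adjusted value does not decide the question.

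The smallest gaps between these states were -5.20 and -6.14 percentage points in iKO samples 1 and 4, and the largest were -25.5 and -30.7 in control samples 1 and 2. The direction was not kept in every sample under other thresholds: with 2 marker UMIs, 64.3% of Tcf7+ and 61.7% of Tcf7- cells cycled in iKO sample 1, and with 5, 20.0% and 12.5% in iKO sample 4. With a threshold of 5 marker UMIs the mean gap was -10.3, and in 5 samples thinned to 5000 UMIs it was -14.2, and in the 5 samples other than iKO samples 1 and 2 it was -18.9, each with an exact permutation p of 0.0625. For the settings with 5 samples that is the smallest p possible, so they could not have given less. The threshold of 5 marker UMIs used 7 samples, which allow 0.0156. A UMI of Tcf7 was seen in 4.07 to 27.0% of cycling cells, in 11.7 to 52.4% of other CD8 T cells and in 1.26 to 3.09% of macrophages, which should lack it, at a macrophage median depth of 13375 to 16324 UMIs. Pdcd1 was seen in 78.4 to 97.2% of cycling cells and in 2.06 to 6.90% of macrophages. After thinning, Tcf7 was seen in 1.37 to 21.1% of cycling cells and Pdcd1 in 44.4 to 77.0%.

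**Figure D2:**
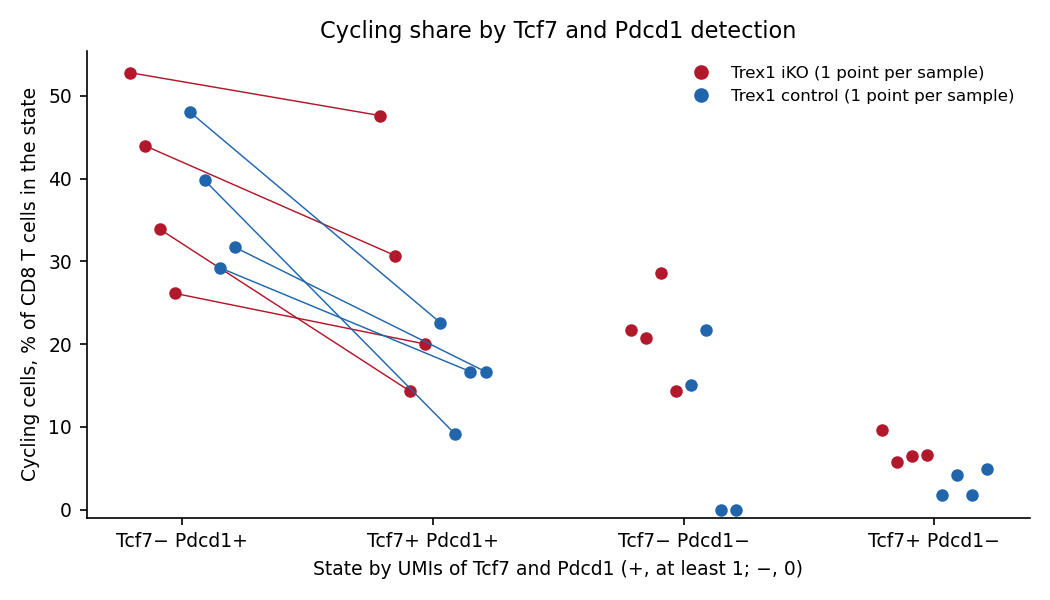
Cycling cells as a percent of the CD8 T cells of each state (vertical axis) for 4 states set by UMIs of Tcf7 and Pdcd1 (horizontal axis); each point is 1 sample, coloured by genotype, and lines join the values of 1 sample. The Tcf7+ Pdcd1+ value lies below the Tcf7- Pdcd1+ value of the same sample along every line.

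Cells with Tcf7 and no Pdcd1, the profile of naive-like and memory cells, cycled at 5.75 to 9.62% in the iKO samples (5 of 52, 5 of 87, 2 of 31 and 4 of 61 cells) and 1.82 to 4.88% in the control samples (1 of 55, 2 of 48, 1 of 55 and 2 of 41). The groups overlapped after thinning (3.08 to 14.7% and 0 to 3.57%) and with a threshold of 5 marker UMIs (2.30 to 7.69% and 1.82 to 4.88%). Of cells with neither gene, 14.3 to 28.6% cycled in iKO samples and 15.1% and 21.7% in control samples 1 and 2. In control samples 3 and 4 none of 24 and 12 such cells cycled, which allows up to 12.5% and 25.0%. Most members were Tcf7- Pdcd1+, namely 93.4%, 93.2%, 69.0% and 62.2% in iKO samples 1 to 4 and 81.3 to 87.5% in the controls. By the same rule for Mki67 and Top2a, 16.7 to 52.4% of regulatory T cells, 4.12 to 11.9% of conventional CD4 T cells and 1.07 to 5.84% of monocytes and macrophages cycled.

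Beside the other CD8 T cells of the same sample, the members are described without a test, because the rule that chose them uses this contrast. Values are plain CPM, averaged over the 8 samples, and the differences are log2 of (CPM + 1). All 36 G2/M genes were higher in the members in 8 of 8 samples, with a median difference of 4.11, and 34 of 36 S phase genes were, with a median of 2.33. Over all 11299 genes compared, 16.0% were higher and 12.5% lower in 8 of 8 samples. Kif2c, a motor protein that depolymerises microtubules in mitosis, stood at 34.6 CPM against 0.403, and Rrm2, a subunit of the enzyme that makes deoxynucleotides, at 180 against 5.62. Neither gene was used to choose the cells, but both move with the genes that were.

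Of 16 progenitor or memory genes, 14 were lower in the members in 8 of 8 samples (list median -1.87). Tcf7 stood at 22.4 CPM against 142, a difference of -2.74 ± 0.75 (SD, n = 8). The interleukin-7 receptor gene Il7r stood at 29.7 against 227. The survival factor Bcl2 stood at 52.2 against 225. Glycolysis genes lay on the other side: 10 of 15 were higher in 8 of 8 samples, among them Ldha, which makes lactate, at 1061 against 589 CPM.

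Interferon genes had lower CPM in the members than in the other CD8 T cells of the same tumour. Of 52 type I interferon genes, 26 were lower in 8 of 8 samples and none was higher in 8 of 8 (median -0.80), and of 20 interferon gamma response genes 13 were lower (median -0.74). Irf7, the factor that amplifies interferon production, stood at 28.6 against 65.1 CPM. Among the genes of nucleic acid sensing the 2 directions were mixed, with 4 of 10 higher and 2 lower in all samples. The DNA sensor Cgas stood at 25.8 against 9.23 CPM, while Samhd1, which degrades deoxynucleotides, stood at 92.1 against 215. The chemokine Ccl5 stood at 2418 against 6355 CPM. The member profiles held more UMIs per cell, so a lower CPM does not say that a cell held fewer molecules. Monocyte and macrophage markers moved with this contrast, with 7 of 9 lower in 8 of 8 samples, and their part in it was not tested.

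Genotypes were then compared within the members, on counts summed per sample, with edgeR's quasi-likelihood test and Benjamini-Hochberg adjustment over all genes tested. CPM in the genotype comparison use libraries scaled by TMM. Of 6909 genes tested, 307 passed an adjusted p of 0.05, 4.44%: 179 were higher in iKO (2.59%) and 128 lower (1.85%). In all, 1218 genes had an unadjusted p below 0.05. For 760 genes, 11%, the CPM ranges of the genotypes did not overlap. The median log2 fold change of all genes was -0.01. Without iKO sample 1 the count was 144 and without iKO sample 2 it was 118, and without both it was 135, of which 81 were among the 307. After thinning to 5000 UMIs, 15 of 1434 genes tested passed. The thinned fit held fewer UMIs and members, with 8 members in control sample 4 and 12 in control sample 3. It could therefore detect less, and a call lost after thinning does not say that the change was absent.

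Type I interferon genes were higher in the iKO members. Of 43 tested genes (of 53 in the files and 56 listed), 36 rose in iKO and none fell, with a list median log2 fold change of 1.15 against -0.01 for all genes, and all 43 fold changes were above 0, from 0.50 to 2.88. Members that rose include antiviral effectors such as Oas1a, which makes the activator of RNase L, and Ifit3, which binds in complexes to foreign RNA, and the transcription factors Irf7 and Irf9, which carry the interferon signal. Without iKO sample 2 the count was 23 of 43, without iKO sample 1 it was 28, and without both 16 of 43 rose and all 43 fold changes were above 0. After thinning only 7 genes of the list were tested. Of those 2 rose, all 7 fold changes were above 0, and the median was 1.10. The list was chosen with earlier results of these data known and is not independent evidence of its direction.

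Irf7 stood at 47.5, 58.9, 39.0 and 55.0 CPM in iKO samples 1 to 4 and at 11.7, 6.75, 9.28 and 7.74 CPM in control samples 1 to 4. Every iKO sample lay above every control sample, by more than the range within either group. The log2 fold change was 2.38 ± 0.20 (SE, edgeR adjusted p = 8.68e-05). Ly6c2, a surface protein of activated and memory CD8 T cells, stood at 845, 899, 679 and 640 CPM in iKO and at 214, 219, 158 and 142 CPM in control, a log2 fold change of 2.04 ± 0.15 (SE, edgeR adjusted p = 3.3e-05). Its groups did not overlap either, and it was the gene with the smallest p among those named. Both genes passed under every alternative in which they were tested, which for Ly6c2 included thinning and for Irf7 did not.

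Several of the largest rises belonged to the p200 family, interferon-induced proteins that bind DNA. Ifi213 stood at 38.2, 51.3, 37.3 and 28.8 CPM in iKO samples 1 to 4 and at 8.35, 7.87, 2.65 and 2.58 CPM in control, a log2 fold change of 2.62 ± 0.28 (SE, edgeR adjusted p = 0.000298). Ifi206 stood at 54.3, 69.9, 59.4 and 70.7 CPM in iKO and at 17.4, 14.6, 7.95 and 2.58 CPM in control, a log2 fold change of 2.20 ± 0.24 (SE, edgeR adjusted p = 0.000298). All iKO samples were above all controls for both. Ifi214, Ifi209 and Ifi208 also rose, the last 2 by 1.73 and 1.66 on the log2 scale. These genes lie in a cluster of close copies, as do Ly6c2, the Oas1 genes, the Ifit genes and the class I genes below, and the counting could have split reads between such copies, so values for single members are uncertain.

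Ifi27l2a, a small interferon-induced membrane protein gene, was the most abundant of the large rises: 2766, 2887, 2614 and 1499 CPM in iKO samples 1 to 4 and 798, 274, 614 and 212 CPM in control samples 1 to 4. The lowest iKO sample, number 4, was still above the highest control, number 1. The log2 fold change was 2.32 ± 0.34 (SE, edgeR adjusted p = 0.00178). The other genes of the 12 largest rises with no overlap were Rtp4 (lost without iKO samples 1 and 2, edgeR adjusted p = 0.0888), Xaf1 (1.77), Zbp1 (1.61), a sensor of left-handed nucleic acid that can start cell death, and Slfn1 (1.52), a T cell growth regulator, with log2 fold changes in parentheses. Isg15, a ubiquitin-like modifier, did not pass: it stood at 159, 206, 121 and 72.0 CPM in iKO and at 121, 15.7, 10.6 and 18.1 CPM in control (log2 fold change 1.39 ± 0.50 (SE), edgeR adjusted p = 0.156). Control sample 1 alone reached the iKO range, and without it the log2 fold change was 3.38 (edgeR adjusted p = 0.00108).

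**Figure D3:**
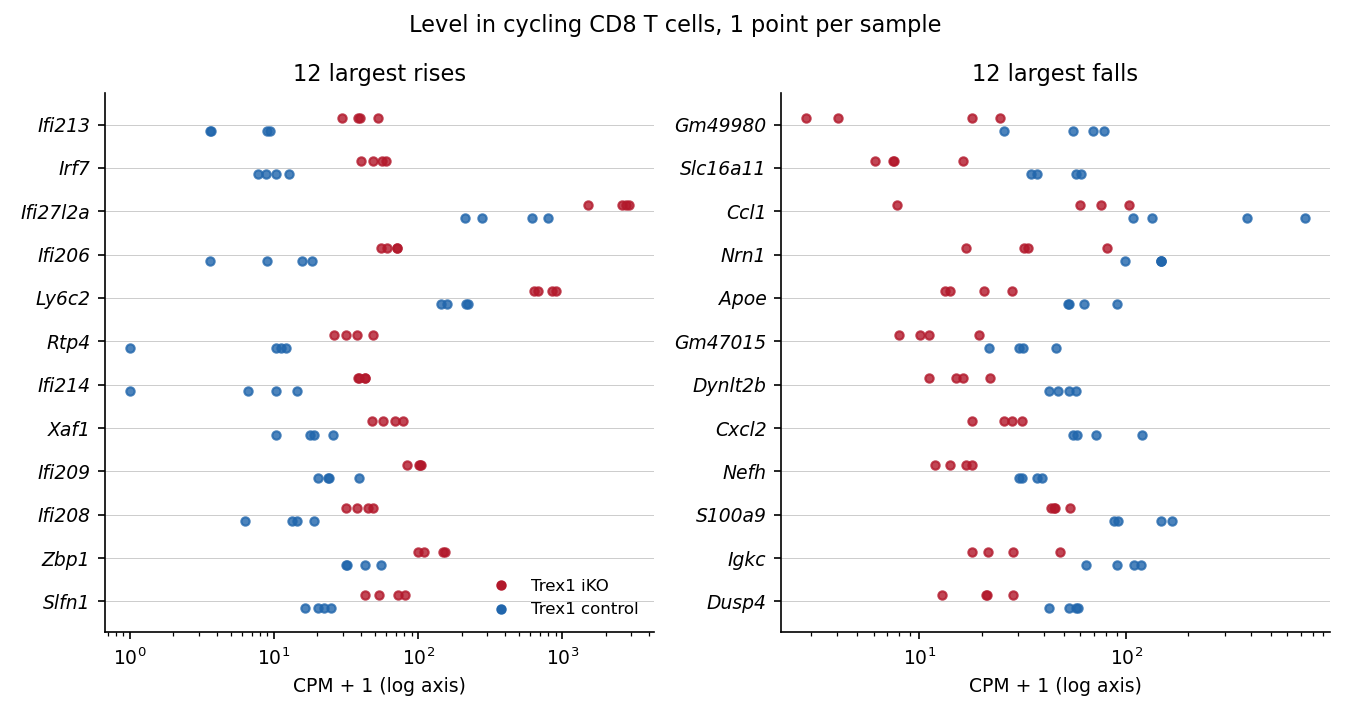
Level of the 12 genes with the largest rise (left) and the 12 with the largest fall (right) in cycling CD8 T cells, as CPM + 1 on log axes; each point is 1 sample, coloured by genotype. The points of the genotypes do not overlap in any row, which was a condition for choosing these genes; Irf7 spans 39.0 to 58.9 CPM in iKO and 6.75 to 11.7 CPM in control.

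Promoter sequence was read for the genes that rose, to show one feature the choice of cells did not use. The interferon-stimulated response element, bound by interferon-activated factors, was searched as GAAANNGAAA on both strands (on the opposite strand it reads TTTCNNTTTC), and overlapping matches were counted separately. The windows run from 250 bases before to 50 after each RefSeq gene start on GRCm38.p6. The count files were made on GRCm39, so genes were matched by symbol alone. A match stood in 15 of the 27 type I list genes that rose and had a window (of 36), 55.6%. It stood in 33 of 139 matched genes among all 179 that rose, 23.7%, in 4 of 91 among the 128 that fell, 4.40%, in 243 of 5584 tested genes, 4.35%, and in 1131 of all 32851 windows, 3.44%. The 250 bases before the start are shown for 4 genes that rose, to set 3 promoters with a match in those bases beside 1 without. The 50 bases after the start are not shown. Oas1a (chr5:120907526-120907775, minus strand) has a pair of overlapping matches and Ifi206 (chr1:173491319-173491568, minus strand) has 1. Ifit3 (chr19:34583279-34583528, plus strand) has 2, read on the opposite strand, and Irf7 (chr7:141266425-141266674, minus strand) has none. Sequences read 5′ to 3′ along the gene and capitals mark the matches.
Oas1a: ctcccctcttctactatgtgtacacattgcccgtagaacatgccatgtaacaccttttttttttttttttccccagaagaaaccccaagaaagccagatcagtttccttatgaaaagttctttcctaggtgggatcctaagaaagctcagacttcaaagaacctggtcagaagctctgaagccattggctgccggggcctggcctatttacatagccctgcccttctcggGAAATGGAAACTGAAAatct
Ifi206: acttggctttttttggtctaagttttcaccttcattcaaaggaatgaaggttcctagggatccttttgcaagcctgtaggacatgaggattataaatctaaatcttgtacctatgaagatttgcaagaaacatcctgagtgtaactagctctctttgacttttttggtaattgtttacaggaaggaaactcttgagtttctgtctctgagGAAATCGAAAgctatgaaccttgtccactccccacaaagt
Ifit3: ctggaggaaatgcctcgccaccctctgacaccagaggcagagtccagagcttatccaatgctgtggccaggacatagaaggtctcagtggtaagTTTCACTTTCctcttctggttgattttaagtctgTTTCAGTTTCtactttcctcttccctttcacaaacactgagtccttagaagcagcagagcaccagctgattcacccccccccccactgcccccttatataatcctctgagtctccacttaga
Irf7: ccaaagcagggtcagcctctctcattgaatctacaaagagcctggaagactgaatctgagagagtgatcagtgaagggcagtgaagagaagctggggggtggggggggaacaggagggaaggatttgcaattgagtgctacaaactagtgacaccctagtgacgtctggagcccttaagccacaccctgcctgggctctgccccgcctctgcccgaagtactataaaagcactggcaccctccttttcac
Oas1a rose by 2.88 ± 0.40 (SE) on the log2 scale (edgeR adjusted p = 0.0015) and Ifit3 by 1.60 ± 0.41 (SE; edgeR adjusted p = 0.0447). Irf7, with no match in the 250 bases shown, rose by 2.38. A match describes letters only.

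Genes of the interferon gamma response also rose. Of 15 tested, 10 were higher and none lower, with a median log2 fold change of 0.77. Iigp1 and Irgm1, GTPases that act on vacuoles of intracellular microbes, had log2 fold changes of 2.78 and 1.30, and Irf1, a transcription factor that both interferon types induce, of 0.97 (edgeR adjusted p from 0.000979 to 0.00265). Without iKO samples 1 and 2 none of 15 passed, and the median was 0.65. Leaving out iKO sample 1, iKO sample 2 or control sample 1 left 6. After thinning only 2 genes of the list were tested, and none passed. Of 18 genes of MHC class I presentation, the display of peptides to CD8 T cells, 7 rose and none fell (median 0.38). The non-classical class I gene H2-T22 stood at 278, 277, 234 and 261 CPM in iKO and at 154, 151, 168 and 160 CPM in control, with no overlap and a log2 fold change of 0.74 ± 0.10 (SE, edgeR adjusted p = 0.00121). The classical genes H2-K1 and H2-D1 rose by 0.49 and 0.43. Without iKO sample 1, without iKO sample 2, and without both, 4 of 18 passed. After thinning none of the 16 genes then tested passed, and the median was 0.34.

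**Figure D4:**
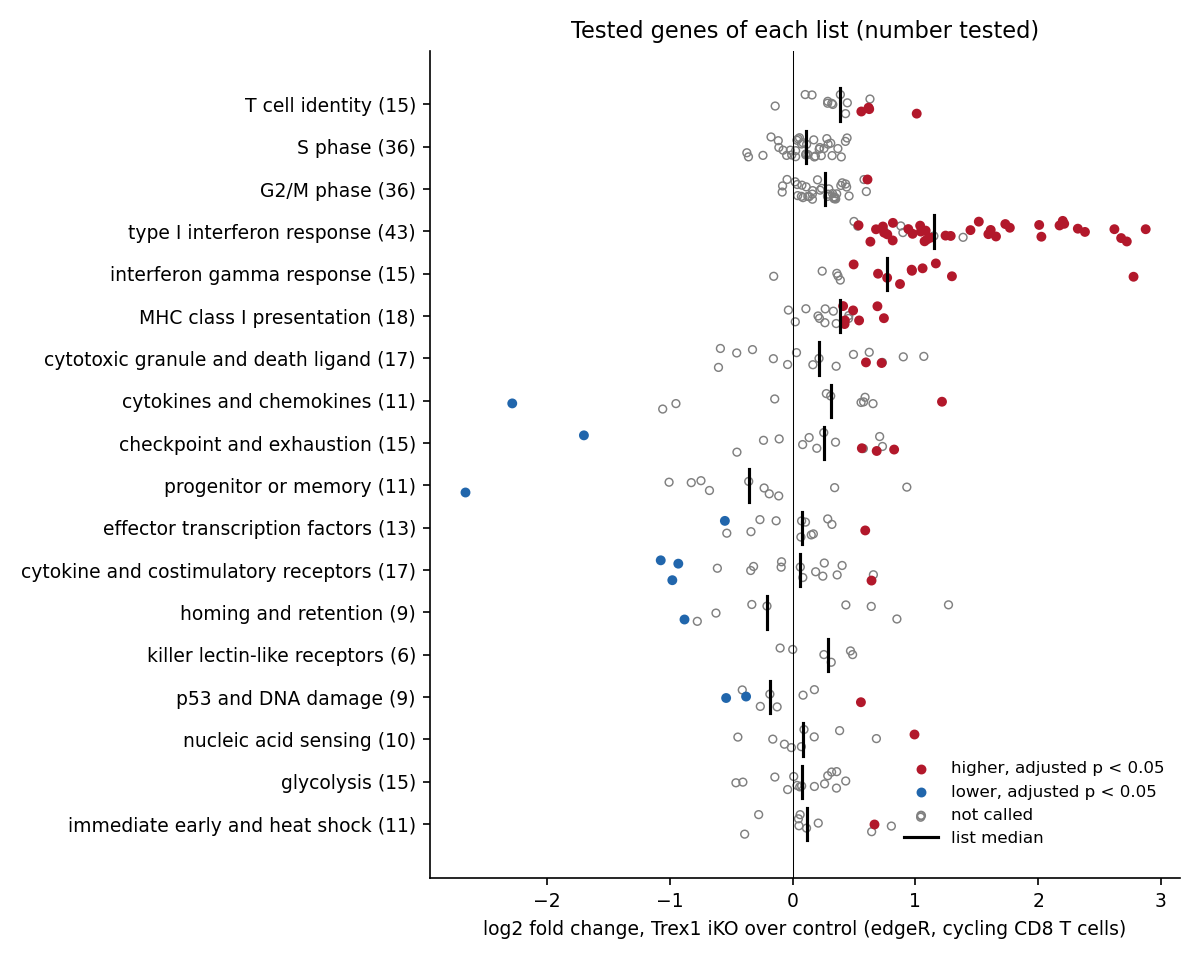
Log2 fold change of iKO over control in cycling CD8 T cells (horizontal axis) for each tested gene of 18 lists (vertical axis, number tested in parentheses); filled points passed an edgeR adjusted p of 0.05, open points did not, and bars mark list medians. The type I interferon median lies at 1.15 and those of S phase and glycolysis at 0.11 and 0.07.

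Few cell cycle genes passed between genotypes within the members. Of 36 S phase genes none passed in edgeR (median 0.11; 2 had an unadjusted p below 0.05) and none in DESeq2, and the median was -0.07 without iKO samples 1 and 2. Of 36 G2/M genes 1 passed in edgeR (median 0.26, with 33 above 0). That gene was Cdk1, the kinase that starts mitosis, at 203, 192, 222 and 217 CPM in iKO and 162, 123, 143 and 98.1 CPM in control. The groups did not overlap, and its log2 fold change was 0.61 ± 0.13 (SE, edgeR adjusted p = 0.0219). The call was lost without iKO sample 1, without control sample 2, without iKO samples 1 and 2 together (edgeR adjusted p = 0.0618) and after thinning (0.426), and without control sample 4 2 genes of the list passed. Top2a, used by the rule, had a log2 fold change of 0.32 (edgeR adjusted p = 0.0781), Mki67 did not pass (edgeR adjusted p = 0.327), and Pcna, the clamp of DNA polymerases, was at -0.05.

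T cell identity genes were higher in iKO in part: 4 of 15 rose and none fell (median 0.39). Cd2, an adhesion receptor of T cells, stood at 413, 326, 396 and 361 CPM in iKO and at 201, 184, 147 and 209 CPM in control, with no overlap and a log2 fold change of 1.01 ± 0.12 (SE, edgeR adjusted p = 0.000758). The T cell receptor subunit Cd3g rose by 0.62, the signalling adaptor Lat by 0.62 and the coreceptor chain Cd8b1, used by the rule, by 0.56. Without iKO sample 1 the count was 2, without iKO samples 1 and 2 together it was also 2 (Cd3g and Cd8b1 lost the call), and without control sample 1 it was 6. After thinning none of the 14 genes of the list then tested passed, Cd2 included (edgeR adjusted p = 0.104). The summed level of the 12 genes that the rule did not use was 6818 to 7127 CPM in iKO and 4760 to 5937 CPM in control. Markers of several other cells had lower levels in iKO: S100a9 and S100a8, the calcium-binding proteins of neutrophils and the only 2 neutrophil genes tested, fell by 1.44 and 1.36, and the summed level of the 5 neutrophil markers was 71.7 to 83.1 CPM in iKO and 154 to 253 CPM in control. In the other CD8 T cells that sum was 129 to 309 CPM in iKO and 339 to 2785 CPM in control. Dendritic cell markers summed to 239 to 667 CPM in iKO and 434 to 1081 CPM in control, B cell markers to 13.2 to 42.8 and 31.5 to 80.1 CPM, and monocyte and macrophage markers to 182 to 258 and 251 to 327 CPM. The ranges of the genotypes overlapped for dendritic cell, B cell, and monocyte and macrophage markers. Melanoma markers were not lower, with sums of 2.52 to 17.5 CPM in iKO and 1.13 to 3.94 CPM in control, nor were erythroid markers, at 0 to 1.26 CPM and at 0. Their part in the genotype results was not tested.

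Effector genes were uneven across the iKO samples. Of 17 tested genes of cytotoxic granules and death ligands 2 rose and none fell (median 0.21). Ctsw, a cathepsin of cytotoxic lymphocytes, stood at 271, 298, 219 and 276 CPM in iKO and at 177, 175, 141 and 150 CPM in control. All iKO samples lay above the controls, and the log2 fold change was 0.73 ± 0.12 (SE, edgeR adjusted p = 0.00457). The call was lost without iKO samples 1 and 2 (0.61, edgeR adjusted p = 0.0766) and after thinning (0.34, edgeR adjusted p = 0.525). The death ligand Fasl rose by 0.60 (edgeR adjusted p = 0.0439), a call lost without any 1 of iKO samples 1 and 2 and control samples 1, 3 and 4. The Fasl call was also lost at a threshold of 5 marker UMIs and without iKO samples 1 and 2 together. Leaving out iKO sample 1, iKO sample 2, control sample 3 or control sample 4 left 1 gene of the list.

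Gzmb, the granzyme that starts apoptosis in target cells, did not pass: it stood at 2970, 2151, 738 and 724 CPM in iKO and at 903, 740, 835 and 1102 CPM in control (log2 fold change 0.90 ± 0.36 (SE), edgeR adjusted p = 0.209). The iKO samples 1 and 2 lay far above all others and iKO samples 3 and 4 below all controls. A UMI of Gzmb was seen in 86.2 to 97.2% of members in iKO and 73.3 to 87.0% in control. It was also seen in 34.5 to 37.1% of macrophages in iKO and 6.71 to 8.59% in control, and in 21.6 to 31.6% and 5.26 to 7.73% of B cells, cells that should lack it. Median depths were 13375 to 16324 UMIs in macrophages and 3654 to 5054 in B cells. Thinned to 5000 UMIs, the shares were 80.0 to 94.2% and 38.9 to 67.6% in members and 13.5 to 15.7% and 1.66 to 3.16% in macrophages. The share in cells that should lack the gene differed between the pools, and its part in the levels of the members was not tested.

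The genes of perforin, interferon gamma and the inhibitory receptor Tim-3 were also highest in iKO samples 1 and 2. Prf1 stood at 1005, 753, 319 and 165 CPM in iKO samples 1 to 4 and at 693, 547, 414 and 302 CPM in control samples 1 to 4. Ifng stood at 838, 652, 282 and 169 CPM and at 593, 421, 406 and 194 CPM, and Havcr2 at 215, 203, 93.4 and 94.2 CPM and at 182, 150, 96.8 and 87.8 CPM. The groups overlapped in each (edgeR adjusted p from 0.705 to 0.863). Gzmc stood at 574, 326, 15.3 and 11.8 CPM in iKO and at 265, 556, 317 and 436 CPM in control. With all samples it did not pass (edgeR adjusted p = 0.729). Without iKO samples 1 and 2 its log2 fold change was -4.86 (edgeR adjusted p = 1.72e-06), and 1 of the 17 genes of the list then rose and 4 fell (median -0.29).

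Among cytokines and chemokines, 1 of 11 rose and 1 fell. Ccl5, which attracts T cells and monocytes, stood at 2439, 2662, 4119 and 4692 CPM in iKO and at 1880, 1515, 1091 and 1466 CPM in control. Every iKO sample lay above every control, with iKO samples 3 and 4 highest, and the log2 fold change was 1.22 ± 0.20 (SE, edgeR adjusted p = 0.0041). The call was lost after thinning (edgeR adjusted p = 0.105). Ccl1, the ligand of the receptor Ccr8, stood at 103, 74.5, 6.79 and 58.9 CPM in iKO and at 382, 107, 731 and 132 CPM in control. It fell by 2.28 on the log2 scale (edgeR adjusted p = 0.0293), and the call was lost without iKO sample 2, without control sample 1 and without control sample 3, while 2 genes of the list fell without iKO sample 4. The call of Ccl1 was also lost with DESeq2, at a threshold of 2 marker UMIs and after thinning. The counts were 1 up and 2 down of 12 without iKO samples 1 and 2 (median -0.37).

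Of 15 tested checkpoint and exhaustion genes, 3 rose and 1 fell (median 0.25). Pdcd1 stood at 363, 341, 255 and 312 CPM in iKO and at 200, 202, 233 and 243 CPM in control. The groups did not overlap, and the log2 fold change was 0.56 ± 0.12 (SE, edgeR adjusted p = 0.0194). Vsir, which encodes the inhibitory protein VISTA, rose by 0.68 and Entpd1, the ectoenzyme CD39, by 0.83. Cd200, a ligand of an inhibitory receptor, fell by 1.70, with overlapping groups. None of the 4 calls was kept without iKO sample 1, without iKO sample 2, without both, or without control sample 2, and 1 was kept without control sample 3. Tox, the factor of exhausted cells, did not pass (edgeR adjusted p = 0.73).

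Of 11 progenitor or memory genes tested, Ccr7, the receptor that guides T cells to lymph nodes, fell and none rose (median -0.36). Ccr7 stood at 9.71, 9.50, 35.6 and 13.1 CPM in iKO and at 40.8, 30.4, 203 and 18.1 CPM in control. The groups overlapped, since iKO sample 3 lay above control samples 2 and 4. Its log2 fold change was -2.67 ± 0.60 (SE, edgeR adjusted p = 0.0223), and the call was lost with DESeq2, without iKO sample 1 and without iKO sample 2, while 2 genes of the list fell without control sample 1. Without iKO samples 1 and 2 together, 1 of 13 rose, none fell, and the median was 0.72, with 10 of 13 above 0. Tcf7 stood at 5.92, 4.01, 27.2 and 44.5 CPM in iKO and at 4.68, 11.2, 45.1 and 41.3 CPM in control and did not pass (edgeR adjusted p = 0.615). It was lowest in iKO samples 1 and 2 and control sample 1, the 3 samples with the most members.

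Transcription factors of effector cells went 1 up and 1 down among 13. Tbx21, the T-bet factor of cytotoxic and interferon gamma producing cells, rose by 0.59 (edgeR adjusted p = 0.0293). The call was lost with DESeq2, with the sample number as a replicate block, and without any 1 of iKO samples 1 and 2 and control samples 1 and 2. Tbx21 stood at 50.8, 51.8, 45.8 and 41.9 CPM in iKO and 30.7, 30.4, 39.8 and 33.6 CPM in control. Bhlhe40, a factor of activated T cells, stood at 310, 290, 236 and 233 CPM in iKO and at 352, 439, 394 and 413 CPM in control. All iKO samples lay below the controls, and the log2 fold change was -0.55 ± 0.12 (SE, edgeR adjusted p = 0.0173). The call was lost without control sample 2 and after thinning. None of 13 rose and 1 fell without iKO samples 1 and 2.

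Receptors for cytokines and costimulation included 1 gene that rose and 3 that fell of 17. Both subunits of the interleukin-18 receptor fell. Il18rap stood at 82.6, 86.2, 35.6 and 56.3 CPM in iKO and at 149, 159, 199 and 90.4 CPM in control. The highest iKO value lay just below the lowest control value, and the log2 fold change was -1.08 ± 0.22 (SE, edgeR adjusted p = 0.0163), a call kept under every alternative in which it was tested. Il18rap was not tested after thinning. Il18r1 fell by 0.93 and the costimulatory receptor Tnfrsf4 (OX40) by 0.98. Icos, another costimulatory receptor, stood at 80.8, 78.6, 83.2 and 79.8 CPM in iKO and at 54.8, 61.8, 46.4 and 31.0 CPM in control and rose by 0.64 (edgeR adjusted p = 0.0271, lost without any 1 of iKO samples 1 and 2 and control samples 1 and 3). The iKO samples were close together and all above the controls. Counts in the list differed without iKO sample 1 (0 up and 2 down), iKO sample 2 (0 and 2), iKO sample 3 (1 and 4), control sample 1 (0 and 3), control sample 2 (1 and 1), control sample 3 (0 and 1) or iKO samples 1 and 2 together (1 and 2, without Icos). Of 9 homing and retention genes Cx3cr1, the receptor of fractalkine, fell by 0.89 (edgeR adjusted p = 0.004, lost without iKO samples 1 and 2 together).

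The p53 and DNA damage genes were mostly not called: of 9 tested, 1 rose and 2 fell (median -0.19). Bax, which opens mitochondria in apoptosis, stood at 241, 261, 253 and 245 CPM in iKO and at 341, 321, 325 and 310 CPM in control. No sample overlapped, and the log2 fold change was -0.38 ± 0.09 (SE, edgeR adjusted p = 0.0268). Ccng1, a cyclin induced by p53, fell by 0.54, and Pmaip1, the Noxa gene, rose by 0.56. Without iKO sample 1, iKO sample 2, control sample 1 or control sample 3 none of the list passed, without iKO samples 1 and 2 together none of these 3 did, and Pmaip1 also lost its call without iKO sample 3 and without control sample 2. Pmaip1 lost its call too with DESeq2 and with the sample number as a replicate block. Bax lost its call also without iKO sample 4, after thinning and with no filter on low counts. Cdkn1a, the cell cycle inhibitor p21, was at -0.26 (edgeR adjusted p = 0.526).

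Of 10 genes of nucleic acid sensing, the pathway in which Trex1 acts, Samhd1 alone passed. It stood at 114, 135, 131 and 137 CPM in iKO and at 79.2, 63.0, 55.7 and 41.3 CPM in control. All iKO samples lay above the controls, and the log2 fold change was 0.99 ± 0.15 (SE, edgeR adjusted p = 0.00285). The call was lost after thinning (edgeR adjusted p = 0.121). None of 15 glycolysis genes (median 0.07; 3 with an unadjusted p below 0.05) and none of 6 killer lectin-like receptor genes (median 0.28; 0 below 0.05) passed in edgeR or in DESeq2. Leaving out iKO samples 1 and 2, 1 of 15 glycolysis genes fell (median -0.24, 2 above 0) and 1 of 6 killer lectin-like receptor genes fell (median -0.57, 1 above 0). Among 11 immediate early and heat shock genes the chaperone gene Dnajb1 rose by 0.67 (edgeR adjusted p = 0.0452, lost without any 1 of iKO samples 1, 2 and 3 and control samples 1, 3 and 4).

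The 12 largest falls with no overlap included a transporter, a phosphatase and genes of other cell types. Slc16a11, a transporter of the monocarboxylate family, stood at 6.43, 5.12, 15.3 and 6.54 CPM in iKO and at 33.8, 56.2, 59.7 and 36.1 CPM in control. The groups did not overlap, and iKO sample 3 was the highest of its group. The log2 fold change was -2.87 ± 0.27 (SE, edgeR adjusted p = 0.000167). Nrn1, the neuritin gene, stood at 31.0, 32.6, 79.8 and 15.7 CPM in iKO and at 147, 97.8, 146 and 147 CPM in control, a log2 fold change of -1.95. Dusp4, a phosphatase that switches off MAP kinases, stood at 20.2, 19.9, 11.9 and 27.5 CPM in iKO and at 56.1, 57.4, 51.7 and 41.3 CPM in control, a log2 fold change of -1.41 ± 0.16 (SE, edgeR adjusted p = 0.000449). All 3 kept their calls under every alternative in which they were tested, but none of them was tested after thinning.

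The largest fall among the named genes was that of Gm49980, a predicted gene, by 3.90 on the log2 scale, from 24.7 to 77.5 CPM in control to 1.83 to 23.6 CPM in iKO. Its call was lost with DESeq2 and without iKO samples 1 and 2. Gm47015, also a predicted gene, fell by 1.90, Dynlt2b, a dynein light chain, by 1.71 and Nefh, a neurofilament subunit, by 1.46. Gm47015 and Nefh did not pass without iKO samples 1 and 2 (edgeR adjusted p = 0.157 and 0.111). Genes that T cells are not known for were among the falls: Apoe, the lipid carrier of macrophages, at 12.3, 19.4, 27.2 and 13.1 CPM in iKO and 51.5, 61.8, 88.8 and 51.6 CPM in control (log2 fold change -1.91), Cxcl2, a chemokine of neutrophils (-1.65), and Igkc, the immunoglobulin kappa constant chain (-1.43). They moved in the direction of the summed markers of macrophages, neutrophils and B cells given above. Of 6 monocyte and macrophage markers tested, Apoe alone passed, and 2 had fold changes above 0 (list median -0.22). The part of macrophages, neutrophils and B cells in the falls was not tested.

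The last comparison asked whether the genotype effect in the members differed from that in other CD8 T cells of the same samples. In other CD8 T cells, 139 of 8121 genes rose (1.71%) and 91 fell (1.12%). Both comparisons use the same samples, so values are set side by side and the difference was tested with an interaction term and the sample as a block. Of 8723 genes 2 passed, 0.0229%, and 643 had an unadjusted p below 0.05. DESeq2 called 3, and the edgeR count was 0 without iKO sample 2 and 4, none of them the same genes, without control sample 1. Of 51 type I interferon genes none passed the interaction test (smallest edgeR adjusted p = 0.126; 10 had an unadjusted p below 0.05). Over those 51 genes the median difference in the joint fit was 0.165. The median log2 fold change was 1.15 over the 43 genes tested in the members and 1.34 over the 50 tested in other CD8 T cells, where 43 rose. Irf7 had log2 fold changes of 2.38 ± 0.20 (SE) and 2.20 ± 0.19 (SE), and Ifi206 of 2.20 and 1.13.

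The 2 genes that passed are Klf2, a factor that holds T cells quiescent and lets them leave tissue, and Acp5, an acid phosphatase. Klf2 stood in the members at 24.9, 20.2, 50.9 and 95.6 CPM in iKO and at 13.0, 18.0, 22.5 and 31.0 CPM in control. In other CD8 T cells it stood at 44.5, 47.2, 167 and 227 CPM in iKO and at 141, 83.4, 132 and 191 CPM in control. In the members 2 iKO samples were above all controls, and in other CD8 T cells iKO samples 1 and 2 were below all controls. The log2 fold changes were 0.93 and -0.25, neither of which passed alone. The difference in the joint fit, which compares both populations within each sample and is not the plain subtraction of these values, was 1.76 ± 0.25 (SE, edgeR adjusted p = 0.0103). It was lost without iKO sample 2 (edgeR adjusted p = 0.0688), without control sample 1 (0.112), without iKO samples 1 and 2 together (0.155) and after thinning (0.134). Acp5 had log2 fold changes of 0.66 and -0.31, with a difference in the joint fit of 1.16 ± 0.19 (SE, edgeR adjusted p = 0.0449), which did not pass without any 1 of 7 samples (iKO samples 1, 2 and 4 and each control).

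Other named genes did not pass the interaction test. Ccl5 had log2 fold changes of 1.22 in the members and 0.41 in other CD8 T cells, where it did not pass (edgeR adjusted p = 0.325), and the interaction did not pass either (0.094). Gzmb had 0.90 in the members and 2.04 in other CD8 T cells (edgeR adjusted p = 0.209 and 0.0839; interaction 0.306). Slc16a11 fell by 2.87 in the members and fell by 2.51 in other CD8 T cells, and Ly6c2 rose by 2.04 and 1.61.

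**Figure D5:**
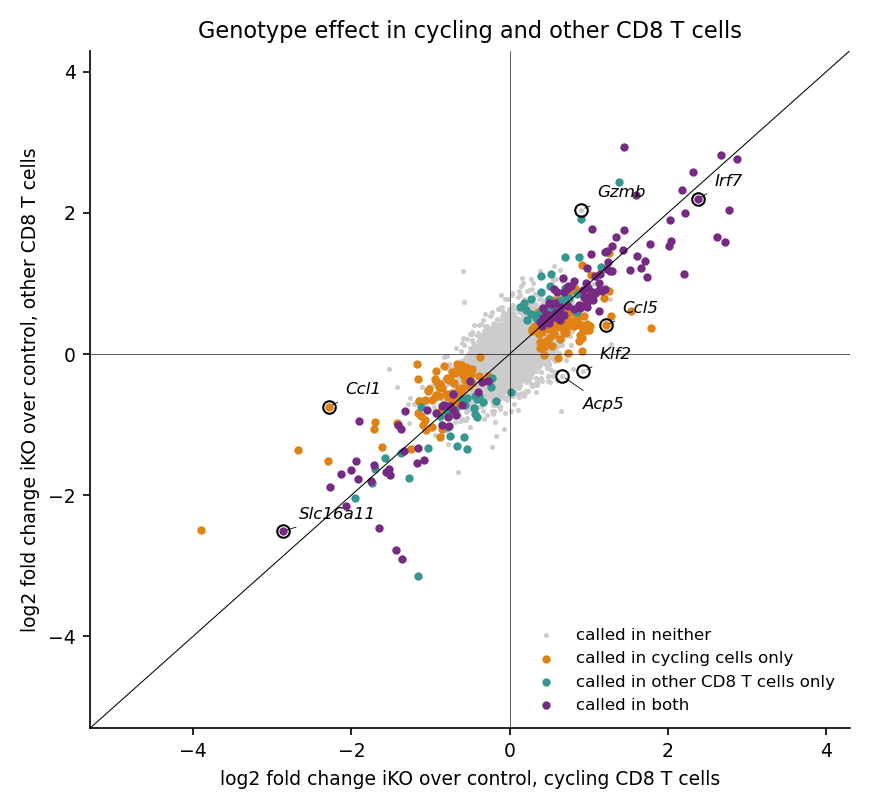
Log2 fold change of iKO over control in cycling CD8 T cells (horizontal axis) and in other CD8 T cells (vertical axis) for the 6682 genes tested in both; colours show where a gene passed an edgeR adjusted p of 0.05, and the diagonal marks equal changes. Klf2 and Acp5 lie right of and below the diagonal, at 0.93 and -0.25 and at 0.66 and -0.31; both axes share samples, so the slope of the cloud is not a result.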

How the data were processed

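The deposited matrices hold UMI counts, as whole numbers for each gene and barcode, 1 matrix for each of 8 hashtagged samples; Cell Ranger 7.1.0 and GRCm39 are named in the submitters' processing notes. The sources used here do not give the intron setting. Cells were filtered and gated as the opening states, on 32432 genes (no unnamed rows). Members and gene lists were chosen with earlier results of these data known. Total UMIs per sample were 17111065 to 96457227.

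Scores from Scrublet (scanpy 1.11.5) marked 438 kept cells (1.95%) above 0.25, which were removed only as an alternative. Member counts were summed per sample and tested with edgeR 4.0.16 (TMM, filterByExpr, quasi-likelihood) in R 4.3.3; DESeq2 1.42.0 was an alternative. Shares were tested by exact permutation (scipy 1.17.1). Replicates of a group differed beyond sampling noise, and no sample was a duplicate. On simulated counts for 6909 genes, the cycling comparison recovered 89.5% of 200 genes changed 4-fold, with 7.25% false calls.

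Named genes are the 12 largest rises and 12 largest falls among genes that passed, averaged at least 20 CPM and did not overlap, the 3 called genes of each list with the smallest p, the genes that passed the interaction test, and a set described at any value. Lat, Entpd1, Tnfrsf4, Oas1a, Ifit3, Irf9 and the genes described between cycling and other CD8 T cells fall outside this rule and were chosen after their values were seen. Alternatives were other thresholds, thinning, doublet removal, other normalization, filter and test, a replicate block, and each sample left out. Omission of iKO samples 1 and 2 was added after seeing the data.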

Additional observations from a re-analysis of the deposited data

Results flagged for a closer look

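Of 149 groups of 4 samples examined, 6 held a sample far from the other 3 by Dixon's test, which chance gives in about 1 in 20 groups. Rtp4 stood at 0 CPM in control sample 4 and at 9.28 to 11.0 CPM in the other controls. Slc16a11 stood at 15.3 CPM in iKO sample 3 and at 5.12 to 6.54 CPM in the other iKO samples. Nrn1 stood at 97.8 CPM in control sample 2 and at 146 to 147 CPM in the other controls. Ccr7 stood apart in 1 sample of each group, at 35.6 CPM in iKO sample 3 (others 9.50 to 13.1 CPM) and at 203 CPM in control sample 3 (others 18.1 to 40.8 CPM). Isg15 stood at 121 CPM in control sample 1 and at 10.6 to 18.1 CPM in the other controls.

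The genotype effect of 2 genes differed between cycling and other CD8 T cells by the interaction test. The difference was 1.76 on the log2 scale for Klf2 and 1.16 for Acp5.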

How the results depend on the processing

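Of 54 named genes called in the members, 20 kept the call under every alternative in which they were tested, 34 lost it under at least 1, and none reversed. Among those 20, Ly6c2 and Ifi27l2a alone were tested under all 17 alternatives. The others, Irf7 and Slc16a11 among them, were not tested after thinning, so their calls were not tried there. Thinning lost the calls of Cd2, Cd3g, Cd8b1, Cdk1, H2-T22, H2-K1, H2-D1, Ctsw, Ccl1, Ccl5, Pdcd1, Bhlhe40, Il18r1, Bax and Samhd1. The thinned fit had 8 members in control sample 4 and could detect less. DESeq2 lost those of Gm49980, Ccl1, Ccr7, Tbx21, Pmaip1 and Ighm. A threshold of 5 marker UMIs lost those of Fasl, Pdcd1, Vsir and Dnajb1, and a threshold of 2 those of Ccl1 and S100a8. The count of 307 called genes was 304 with RLE size factors, 306 with DESeq2, 575 with no filter on low counts (17622 tested) and 15 after thinning (1434 tested). It was 118 to 338 with 1 sample left out and 135 without iKO samples 1 and 2. With the sample number as a replicate block it was 357. The labels give the numbers no shared animal or batch, and same-numbered samples correlated at 0.165, 0.085, 0.0611 and 0.0986, not all above 0.1. The numbers were therefore not taken to pair the samples, though 3 of 4 pairs correlated best with their own number. In each number the iKO sample had the larger cycling share of CD8 T cells and of kept cells. By number, the iKO and control shares of CD8 T cells were 49.2% and 34.4%, 40.6% and 25.7%, 23.2% and 14.2%, and 17.9% and 16.0%. The tests of the shares took no account of the numbers.

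The interaction count of 2 was 3 with DESeq2, 1 with RLE, 66 with no filter, 3 after thinning, 0 to 4 with 1 sample left out and 1 without iKO samples 1 and 2. Without those samples the cycling share of CD8 T cells differed by -2.04 points and that of kept cells by -0.777, both reversed. Control samples 1 and 2, the highest controls, were kept there, and iKO samples 3 and 4 lay above control samples 3 and 4 in both shares. The paired difference between Tcf7 states was -10.3 at a threshold of 5 UMIs, -14.2 after thinning, -18.9 without iKO samples 1 and 2, and -18.0 to -13.7 with 1 sample left out. The causes were not tested. Depth limits the members of iKO samples 3 and 4 and control samples 3 and 4, with 16 to 37 cells each.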
